A study of Mus musculus with 365 samples.

Results

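The receptors Notch1 and Notch2, the DNA-binding factor Rbpj and the direct targets Hes1, Dtx1 and Nrarp were followed in single bone marrow progenitors. They were chosen by name, as 6 of the 23427 genes in the count table, and each was found in it by its Entrez identifier. The cells were EPLM, progenitors with lymphoid and myeloid potential, sorted from femur bone marrow of C57BL/6 Flt3Ltg mice, which carry a transgene for the cytokine Flt3 ligand. Of these, 213 were labelled TN, for triple negative, and 152 were Ly6D+, carrying the surface protein Ly6D. All cells of both populations came from Flt3Ltg mice, 2 mice were pooled, and no group without the transgene was analysed here. Each population was captured on 3 Fluidigm C1 chips (TN on chips 1 to 3 with 75, 69 and 69 cells, Ly6D+ on chips 4 to 6 with 40, 60 and 52 cells), and the chip is the replicate in every comparison. The promoter of the transgene and the age of the mice were not given in the sources used here. The labels do not tie chips to separate mice, so a p-value here reflects chip-to-chip spread, possibly technical, and chip and population cannot be told apart.

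Notch receptors are cell surface proteins that bind Delta-like or Jagged ligands on a neighbouring cell. Binding exposes the receptor to ADAM proteases and then to gamma-secretase, and the freed intracellular domain enters the nucleus. There it joins Rbpj and a Mastermind-like coactivator on DNA, turning a site that Rbpj otherwise holds with corepressors into an active one. Hes1 is a transcriptional repressor, Nrarp is a feedback inhibitor of the complex, and Dtx1 is a Deltex ubiquitin ligase. In early lymphoid progenitors, Notch1 signalling in the thymus directs cells to the T lineage and away from the B lineage, and Notch2 is known for its role in marginal zone B cells.

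The stretches upstream of Notch1 and Notch2 are shown because the balance of these receptors did not overlap between the populations, and that of Rbpj because it holds the core letters that the Rbpj protein itself binds. Sequences are from RefSeq (GRCm38.p6), which had a promoter window for 5 of the 6 genes, and are written 5′ to 3′ on the strand of the gene. Notch1 (minus strand, chr2:26503873-26504072), Notch2 (plus strand, chr3:98013288-98013487) and Rbpj (plus strand, chr5:53590096-53590205, upstream of the first listed start) read as follows.
Notch1: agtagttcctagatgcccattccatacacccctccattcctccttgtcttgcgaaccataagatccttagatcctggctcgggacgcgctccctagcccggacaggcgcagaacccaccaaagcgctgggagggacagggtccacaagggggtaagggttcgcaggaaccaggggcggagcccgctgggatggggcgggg
Notch2: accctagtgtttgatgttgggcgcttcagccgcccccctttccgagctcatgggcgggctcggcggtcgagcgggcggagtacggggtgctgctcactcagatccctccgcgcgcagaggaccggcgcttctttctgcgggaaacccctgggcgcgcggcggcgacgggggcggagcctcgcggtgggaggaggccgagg
Rbpj: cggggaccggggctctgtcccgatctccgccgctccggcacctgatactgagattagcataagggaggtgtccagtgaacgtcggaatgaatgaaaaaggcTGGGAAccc
Capitals mark TGGGAA, the Rbpj core motif. It was searched on both strands, as TGGGAA or TTCCCA, in the 250 bases before each start. Of 32851 such windows, 21.6% held it. The window of the first Rbpj start held 2 matches, which began 149 and 65 bases before it and the first of which is shown, and the windows of Notch1, Notch2, Dtx1 and Nrarp held these letters 0 times.

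Chips held between 35734620 and 61415823 reads counted to genes, and the shallowest cell held 267852. Median reads per cell were 750934 to 823684 on TN chips and 894864 to 1000070 on Ly6D+ chips. A gene was called detected in a cell at 5 or more reads after each cell was thinned to 200000 reads, equal to 25 CPM (reads scaled to a common library size). By this measure 2521 ± 82 genes were detected per TN cell and 2685 ± 215 per Ly6D+ cell (SD over 3 chips each, exact permutation p = 0.4). Ly6d, the gene of the sorted surface protein, stood at 82.8, 167 and 282 CPM on TN chips and at 3041, 2855 and 2560 on Ly6D+ chips. All 5 genes of a progenitor list (Ptprc, Kit, Flt3, Il7r, Cd93) had reads, and together they summed to 2147 to 2863 CPM per TN chip and 3741 to 3981 per Ly6D+ chip. Reads summed per chip were tested with edgeR (quasi-likelihood) for 11797 genes, of which 24 passed an adjusted p of 0.05, which is 0.0932% higher and 0.11% lower in Ly6D+, and 988 had an unadjusted p under 0.05. The median log2 fold change of all tested genes was 0.01.

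Of the 6 genes, 4 passed the filter on low counts, and edgeR called none of them, with 2 at an unadjusted p under 0.05 (beside 988 of all 11797 tested genes). Notch1 and Hes1 had higher summed reads, and were detected in more cells, on every Ly6D+ chip than on any TN chip, whereas the chips of both populations overlapped for Notch2 and Rbpj. Dtx1 and Nrarp were close to absent from the counts of both populations. Averaged over the 6 chips and divided by gene length, levels were 17.3 CPM per kilobase for Notch1, 14.1 for Notch2, 13.9 for Rbpj and 8.58 for Hes1. These levels exceeded those of 61.2%, 55.9%, 55.4% and 43.3% of tested genes respectively, so the receptors and Rbpj were mid-range transcripts.

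**Figure D1:**
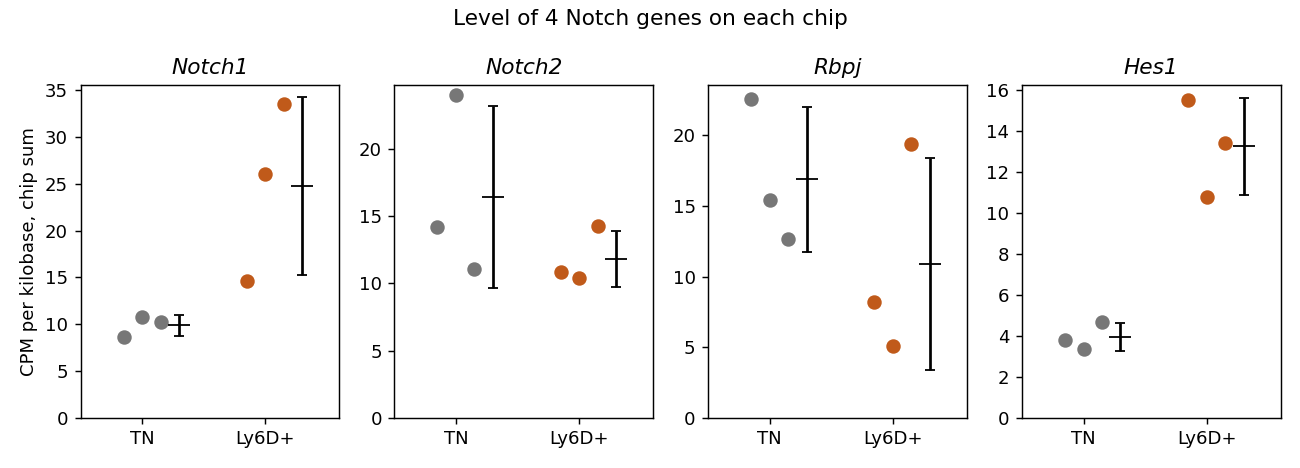
Level of Notch1, Notch2, Rbpj and Hes1 in CPM per kilobase of gene length on each chip (points) with the mean and SD over 3 chips of TN and of Ly6D+ cells. Notch1 and Hes1 chips do not overlap between populations, and those of Notch2 and Rbpj do.

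Notch1, the receptor that drives T-lineage commitment, had 81.7, 102 and 96.8 CPM on TN chips 1, 2 and 3, and 139, 248 and 318 CPM on Ly6D+ chips 4, 5 and 6. Every Ly6D+ chip was above every TN chip, with chip 4 the lowest of its group. The means were 93.6 ± 10.6 and 235 ± 90.5 CPM (SD, n = 3 chips each). The log2 fold change was 1.33 ± 0.33 (SE), with an adjusted p of 0.227 by edgeR. The adjusted p was 0.0125 by DESeq2 and 0.00322 by limma-trend on chip means of log2(CPM + 1). The limma-trend estimate of 2.36 is a difference in means over cells of these logs, not a fold change of summed reads. Thus 2 of the 3 tools called the gene higher. Over all genes, DESeq2 called 1.66% higher in Ly6D+ and limma-trend 1.87%. Of all tested genes, 7.64% had chip levels higher in Ly6D+ without overlap.

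In single cells, Notch1 was detected in 38.7%, 43.5% and 30.4% of cells on the TN chips and in 67.5%, 60.0% and 76.9% on the Ly6D+ chips. The mean share was 37.5% ± 6.6 against 68.1% ± 8.5 (SD, n = 3), a difference of 30.6 percentage points, and the exact two-sided permutation p of 0.1 is the smallest that 3 against 3 chips allow. Of tested genes, 10.4% had shares that were higher on all Ly6D+ chips. At least 1 Notch1 read was present in 117 of 213 TN cells (54.9%, exact 95% binomial interval 48.0 to 61.7). For Ly6D+ cells this was 125 of 152 (82.2%, 75.2 to 88.0). These intervals pool the cells of 3 chips, cover counting error only and do not compare the populations. They use reads before thinning, and median reads per cell were higher on Ly6D+ chips. Among cells in which Notch1 was detected, the median level was 128, 153 and 172 CPM on TN chips and 116, 230 and 303 CPM on Ly6D+ chips. These medians overlapped between the populations (exact permutation p = 0.4), whereas the shares of positive cells did not. The reads were unevenly spread over cells. The highest cell of a chip held 8.96% to 19.7% of its Notch1 reads. On TN chips 1, 2 and 3 the top 6, 5 and 4 cells held at least as many Notch1 reads as all others. On Ly6D+ chips 4, 5 and 6 the top 5, 5 and 9 cells did so. Fewer positive cells and less RNA per cell cannot be told apart in the summed reads.

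Notch2, the second receptor, stood at 149, 253 and 117 CPM on TN chips and 114, 109 and 150 CPM on Ly6D+ chips. TN chip 2 was the highest of all, and the other 5 chips lay close together. The means were 173 ± 71 and 124 ± 22 CPM (SD, n = 3), and the log2 fold change of -0.48 ± 0.34 (SE) had an adjusted p of 0.778 in edgeR. Leaving out TN chip 2 gave -0.10. On Ly6D+ chip 4 a single cell held 33.6% of the Notch2 reads. The gene was the most widely detected of the 6, in 66.7%, 85.5% and 82.6% of cells on TN chips and 72.5%, 68.3% and 80.8% on Ly6D+ chips. The difference of -4.39 percentage points was within the spread between chips (exact permutation p = 0.6), and -10.2 without TN chip 1. At least 1 read was present in 205 of 213 TN and 138 of 152 Ly6D+ cells.

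**Figure D2:**
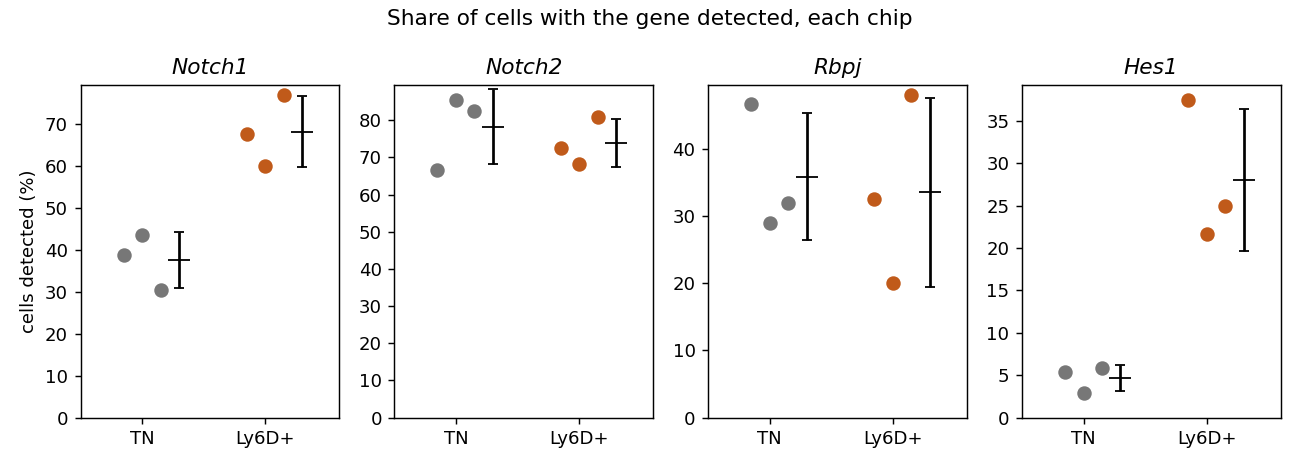
Percentage of cells per chip with each gene detected (5 or more of 200000 thinned reads), with the mean and SD over 3 chips per population. Notch1 averages 37.5% in TN and 68.1% in Ly6D+ cells, Hes1 4.68% and 28.1%, while Notch2 and Rbpj overlap.

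The balance between the receptors, a measure chosen after the values were seen, also did not overlap between the populations. It contains the Notch1 levels given above, so it is not a separate result. No share over other gene pairs was computed. The log2 ratio of Notch1 to Notch2, both per kilobase, was -0.72, -1.16 and -0.12 on TN chips and 0.43, 1.33 and 1.24 on Ly6D+ chips. It was negative on each TN chip and positive on each Ly6D+ chip. The means were -0.67 ± 0.52 and 1.0 ± 0.49 (SD, n = 3), a difference of 1.67 with the smallest possible exact permutation p of 0.1, and it stayed between 1.42 and 1.95 when any chip was left out. Cell by cell, 29.3% ± 8.6 of TN and 55.7% ± 10.2 of Ly6D+ cells held more Notch1 than Notch2 reads per base.

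Cells with both receptors detected made up 22.7%, 37.7% and 21.7% of the TN chips and 50%, 43.3% and 63.5% of the Ly6D+ chips. Cells with Notch2 alone made up 44.0%, 47.8% and 60.9% of the TN chips and 22.5%, 25.0% and 17.3% of the Ly6D+ chips. Neither class overlapped between populations (exact permutation p = 0.1 for each). Both classes depend on the Notch1 detection given above, and no share over other gene pairs was computed. Notch1 alone was found in 10.2% ± 5.3 of TN and 15.9% ± 2.1 of Ly6D+ cells (exact permutation p = 0.2), and neither receptor in 11.6% ± 5.0 and 10.3% ± 4.6 (exact permutation p = 0.7). Notch2 alone was the most common class on each TN chip, and both receptors on each Ly6D+ chip.

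**Figure D3:**
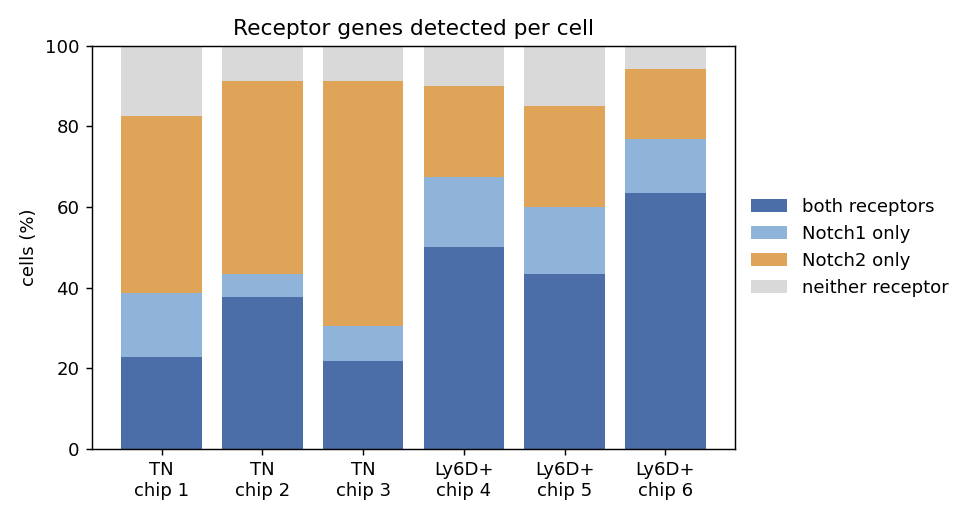
Percentage of cells with both receptors, Notch1 only, Notch2 only or neither detected, as stacked bars, 1 for each of the 6 chips. Over 3 chips, Notch2 only averages 50.9% in TN and 21.6% in Ly6D+, and both receptors 27.4% and 52.3%.

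Rbpj, the DNA-binding protein through which all Notch receptors act, stood at 135, 91.8 and 75.4 CPM on TN chips and at 48.7, 30.4 and 115 CPM on Ly6D+ chips. Ly6D+ chip 6 was within the TN range and chips 4 and 5 were below it. The means were 101 ± 31 and 64.9 ± 44.8 CPM (SD, n = 3), with a log2 fold change of -0.63 ± 0.52 (SE) and an adjusted p of 0.822 in edgeR. Without Ly6D+ chip 6 the log2 fold change was -1.37 (adjusted p = 0.444 in edgeR), and without Ly6D+ chip 5 it was -0.30. Rbpj was detected in 46.7%, 29.0% and 31.9% of cells on TN chips and in 32.5%, 20% and 48.1% on Ly6D+ chips. The difference of -2.32 percentage points (exact permutation p = 1) became 3.09 without TN chip 1 and 4.44 without Ly6D+ chip 5, so its sign depended on the chips used.

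Where Rbpj was detected, its median level was 137, 181 and 109 CPM on TN chips and 39.2, 104 and 103 CPM on Ly6D+ chips. These medians did not overlap (exact permutation p = 0.1), although TN chip 3 and Ly6D+ chip 5 were close, and they rest on 12 to 35 cells per chip. The share of all tested genes with medians apart in this way was not computed, and the Rbpj levels and shares of cells did overlap. One cell held 14.0% to 38.7% of the Rbpj reads of its chip. RefSeq names 3 Rbpj pseudogenes, 0 of which have a row in the counts, and whether Rbpj reads include theirs was not tested.

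Hes1, the repressor that is widely used as a readout of Notch activity, had 5.52, 4.85 and 6.75 CPM on TN chips and 22.5, 15.6 and 19.5 CPM on Ly6D+ chips. The highest TN chip was well under the lowest Ly6D+ chip. The means were 5.71 ± 0.96 and 19.2 ± 3.5 CPM (SD, n = 3), a ratio of 3.36. The counts behind them were small, at 958 reads in TN and 2612 in Ly6D+ cells. The log2 fold change was 1.75 ± 0.75 (SE), with an adjusted p of 0.591 in edgeR, 0.177 in DESeq2 and 0.00225 in limma-trend, so only limma-trend called it.

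Hes1 was rare in TN cells, where 22 of 213 had a read (10.3%, exact 95% binomial interval 6.59 to 15.2). It was common in Ly6D+ cells, where 75 of 152 did (49.3%, 41.1 to 57.6). These intervals again pool cells over chips, use reads before thinning, cover counting error only and do not compare the populations. Hes1 was detected in 5.33%, 2.90% and 5.80% of cells on TN chips, and in 37.5%, 21.7% and 25.0% on Ly6D+ chips. The shares did not overlap, at means of 4.68% ± 1.56 and 28.1% ± 8.3 (SD, n = 3), a difference of 23.4 percentage points with an exact permutation p of 0.1. The difference depended on the limit for detection: it was 37.8 points at 1 or more thinned reads and 36.1 at 5 reads without thinning, but 1.05 at 20 or more thinned reads, where the exact permutation p was 0.4. The few positive TN cells were not low: their median level was 84.2, 123 and 112 CPM on chips 1, 2 and 3, against 50.9, 59.6 and 50.1 CPM on the Ly6D+ chips. These TN medians rest on 4, 2 and 4 cells, and the top cell held 51.4%, 48.5% and 37.3% of the Hes1 reads of its TN chip. On Ly6D+ chips 4, 5 and 6 the top cell held 17.38%, 12.19% and 19.96% of the Hes1 reads. Leaving out the top cell of every chip therefore takes a larger part of the Hes1 reads from TN chips, which by itself raises the estimate. The log2 fold change was then 2.35 (adjusted p = 0.321 in edgeR), and this rise is not separate evidence for the difference.

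Dtx1 and Nrarp, Notch targets in T-cell precursors, were nearly unread. Dtx1 had 26 reads, all in 1 cell of TN chip 1, and it had a read in 0 of 152 Ly6D+ cells (with 3 cells as the limit that a count of 0 allows, a share of up to 1.97%). Nrarp had 59 reads in 5 of 365 cells. Of these cells, 2 were on TN chip 3, with 36 and 2 reads, and 1 was on each Ly6D+ chip, with 2, 9 and 10 reads. Neither gene passed the filter on low counts, so neither was tested, and a difference between populations was not detectable at this depth. The targets thus split, with Hes1 read in 97 of 365 cells, Nrarp in 5 and Dtx1 in 1. Intervals and limits of this kind cover counting error only.

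Taking the genes by cell, TN cells had 1.57 ± 0.05 of the 6 detected and Ly6D+ cells 2.04 ± 0.31 (SD, n = 3 chips). Cells with 3 of them detected were 8.39% ± 2.45 of TN and 25.1% ± 8.5 of Ly6D+ cells. Cells with 4 detected overlapped, at 1.33%, 2.90% and 1.45% of TN chips and 10%, 0% and 9.62% of Ly6D+ chips. These counts contain the Notch1 and Hes1 detection given above, so they are not separate results. No share over other gene sets was computed. Some marker lists of other cells also differed between the populations, and others overlapped. Markers of mature B cells (4 of 5 in the table, all 4 with reads) summed to 87.6 to 176 CPM per TN chip and 350 to 893 per Ly6D+ chip. Those of conventional dendritic cells (5 of 5 with reads) summed to 1554 to 3567 and 263 to 945. NK-cell markers (2 of 4 with reads) did not overlap either, at 237 to 323 and 327 to 484 CPM. Plasmacytoid dendritic cell markers (5 of 5 with reads) overlapped, at 1523 to 2164 and 1265 to 2023 CPM. Lists of neutrophils, erythroid cells and megakaryocytes overlapped as well. The part of any of these lists in the differences of Notch1 and Hes1 was not tested. T-cell markers (5 of 6 with reads, Cd3e at 0) summed to 0.625 to 8.67 CPM per TN chip and 0.167 to 7.80 per Ly6D+ chip, and all 4 stromal markers were at 0.

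Within the TN population, Notch1 detection went with Dntt, which encodes terminal deoxynucleotidyl transferase, the enzyme that adds bases to rearranging antigen receptor genes in early lymphoid cells. Dntt was detected in 65 of 213 TN cells, and in 97.5%, 88.3% and 96.2% of cells on the Ly6D+ chips. Among TN cells without Dntt, Notch1 was detected in 24.5%, 29.5% and 21.6% on chips 1, 2 and 3, and among those with Dntt in 72.7%, 68.0% and 55.6%. The share was higher in cells with Dntt on 3 of 3 chips, by 40.2 ± 7.3 percentage points (SD over chips), and between 36.2 and 43.3 with a chip left out. In the same direction on all 3 chips were 20.2% of tested genes, and 15 of 11797 had a larger mean difference than Notch1. Dntt, which defines the classes, was not removed from these counts and is among the 15 by construction. Summed over cells, Notch1 had 29.0, 30.5 and 33.2 CPM without Dntt and 225, 239 and 259 CPM with it.

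Cells with Dntt also had more genes detected, 2883, 2793 and 2498 per cell on chips 1, 2 and 3 against 2493, 2350 and 2426, and the part of this in the difference was not tested. The comparison was chosen with values of these data in view and carries no p. TN cells with Dntt and Ly6D+ cells with Dntt overlapped for Notch1, at 65.4% ± 8.9 and 69.6% ± 7.4 (SD, n = 3), a difference of 4.18 percentage points (exact permutation p = 0.6), and in summed reads at 241 ± 17 and 244 ± 97 CPM (exact permutation p = 0.9).

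**Figure D4:**
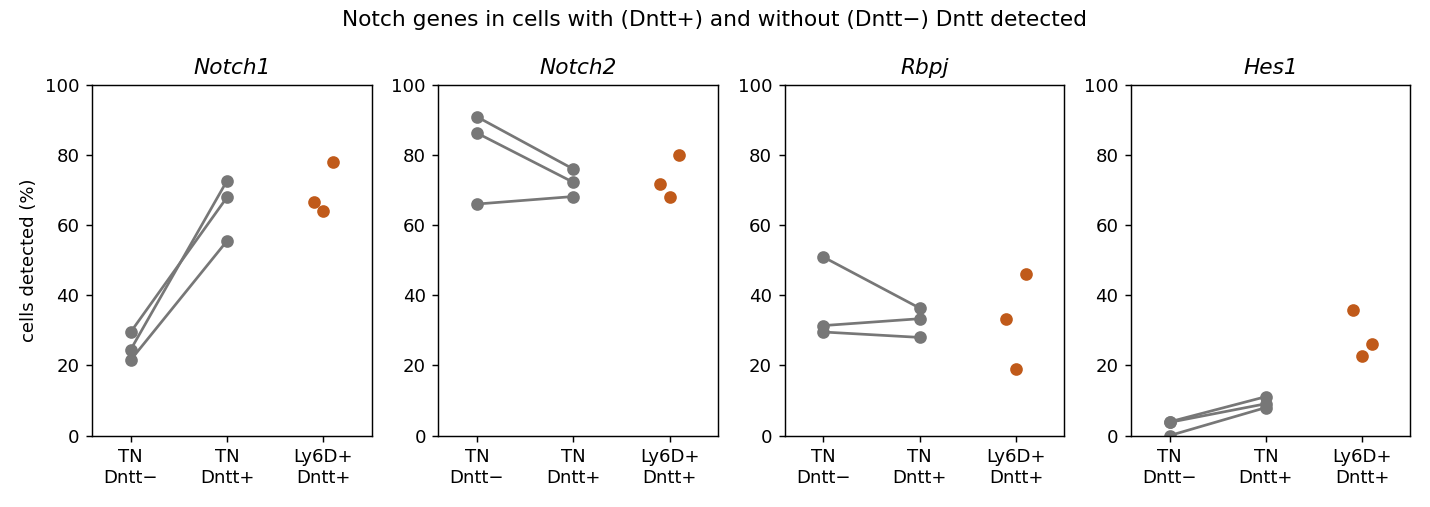
Percentage of cells with Notch1, Notch2, Rbpj or Hes1 detected on each chip (points; lines join the same TN chip) in TN cells without Dntt, TN cells with Dntt and Ly6D+ cells with Dntt. Notch1 is at 25.2%, 65.4% and 69.6% on average, and Hes1 at 2.57%, 9.40% and 28.2%.

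In the same cells Hes1 did not overlap. On each TN chip 2 cells with Dntt were positive for it, which is 9.09%, 8% and 11.1%, whereas in Ly6D+ cells with Dntt the shares were 35.9%, 22.6% and 26.0%. The Ly6D+ shares were all above the TN shares, by 18.8 percentage points on average (exact permutation p = 0.1), and summed reads were 10.5 ± 4.2 against 19.4 ± 3.3 CPM (exact permutation p = 0.1). Among all tested genes, 5.54% had shares and 8.2% had summed reads that were higher in Ly6D+ cells with Dntt without overlap. Whether the difference of Hes1 exceeds that of Notch1 was not tested. The use of Dntt to compare populations was chosen after values were seen, for Notch1 as for Hes1. Cells with Dntt were 97.5%, 88.3% and 96.2% of the Ly6D+ chips, so the Ly6D+ side nearly repeats the whole population. It is not a separate result, and other detection limits were not tried for it.

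Against TN cells without Dntt, Hes1 was detected in more TN cells with Dntt on 3 of 3 chips, at 9.40% ± 1.58 and 2.57% ± 2.22, but these are 6 and 4 cells, and its summed reads on chip 1 were 5.59 CPM with and 5.98 without Dntt. The mean difference in Hes1 share, 6.84 percentage points, was 16.6 at a limit of 1 read and 2.98 at 20 reads. Notch2 had shares of 81.1% ± 13.2 without and 72.1% ± 3.9 with Dntt in TN cells, higher on 1 of 3 chips with Dntt. Its summed reads were 189, 345 and 130 CPM without Dntt and 84.3, 108 and 54.8 CPM with it, lower on each chip. The share of all tested genes with summed reads lower in this way was not computed. Rbpj was detected in 37.3% ± 11.9 without and 32.6% ± 4.2 with Dntt.

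In other marker classes of TN cells the difference in Notch1 share changed sign between chips. In TN cells with the granule genes Mpo or Prtn3, Notch1 was detected in 41.4% against 35.0% without them (higher on 2 of 3 chips), with 2860 and 2202 genes detected per cell. In TN cells with H2-Aa, an MHC class II gene, Notch1 was at 26.7% and without it at 42.4% (higher on 1 of 3 chips), with 2034 and 2692 genes detected per cell. On chip 2 this difference was -42.0 percentage points. In TN cells with Kit, the stem cell factor receptor, Hes1 was at 5.61% and without it at 4.16%, higher on 3 of 3 chips, a direction shared by 11% of tested genes, and 4, 2 and 4 positive cells per chip lie behind it.

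In Ly6D+ cells with Ebf1, which encodes a B-lineage factor, Notch1 was detected in 63.6% and without it in 71.5%. The share was lower with Ebf1 on 3 of 3 chips, as for 14.5% of tested genes, and Rbpj was lower on 3 of 3 as well, at 27.8% against 38.2%. Cells with Ebf1 had 2586 genes detected and those without it 2773. Hes1 differed in direction between chips for Ebf1, at 55.6%, 13.6% and 33.3% with it and 22.7%, 26.3% and 17.9% without it on chips 4, 5 and 6. With Irf8, a factor of dendritic and B cells, Notch1 was at 71.6% against 60.7% and Notch2 at 79.3% against 62.5%, each higher on 3 of 3 chips, as were 23.6% of tested genes, with 2823 against 2387 genes detected per cell. Hes1 was higher on 3 of 3 chips in cells with Il7r, the interleukin 7 receptor (30.3% against 23.3%, a direction shared by 12.1% of genes), and in cells with Kit (36.1% against 25.6%, shared by 6.11% of genes, with 34 such cells in all). None of these within-population values carries a test.

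Detection of 1 member was compared in cells with and without another. Over the 6 chips, Hes1 was detected in 19.3% of cells with Notch1 and 11.5% of those without, a difference of 7.72 ± 13.6 percentage points (SD over chips) that was positive on 4 of 6 chips and ranged from -12.5 on Ly6D+ chip 5 to 21.7 on Ly6D+ chip 6. Notch2 was detected in 74.3% of cells with Notch1 and 75.1% without. This average covers unlike values in the populations. The difference was -13.1, 2.05 and -16.1 percentage points on TN chips 1, 2 and 3. On Ly6D+ chips 4, 5 and 6 it was 4.84, 9.72 and 7.5. At a limit of 1 thinned read the chips overlapped, with TN chip 2 at 13.5, above every Ly6D+ chip. Whether this difference depends on the population was not tested. Rbpj differed by 2.30 ± 11 points with Notch1 and by 3.69 ± 4.49 with Notch2. With Notch1 its difference was -8.62, -10 and 2.08 on TN chips and 2.56, 19.4 and 8.33 on Ly6D+ chips. At 1 thinned read the Ly6D+ values were -9.375, 33.3 and -28.4. Each of these mean differences over the 6 chips was smaller than its spread between chips. At a limit of 1 thinned read the Rbpj difference with Notch2 was 25.0 ± 19.2 points, positive on 5 of 6 chips, with 3 to 10 cells per chip lacking Notch2. Cells with Notch1 had 2793 genes detected and cells without it 2393.

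The genes most like each member across cells were ranked by the Spearman correlation within a chip, averaged over 6 chips, among genes detected in at least 20% of cells. All correlations were weak and describe cells that share a library. For Notch1 the closest were Tns1, a focal adhesion protein (0.33 ± 0.12, SD over chips), Ppie (0.32), a spliceosome-associated isomerase, and Cox6a2 (0.31), a cytochrome oxidase subunit, against a median of 0.06 for all ranked genes. For Notch2 they were Actb, beta-actin (0.29), Id2, an inhibitor of E proteins (0.27), and Itpr1, a calcium channel of the endoplasmic reticulum (0.25). For Rbpj they were Zfp36l2, an RNA-binding zinc finger protein (0.22), Fes, a tyrosine kinase (0.21), and Spc25, a kinetochore protein (0.21). Hes1, Dtx1 and Nrarp were detected in too few cells to be ranked.

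The pathway as a whole was read from a list of 65 genes in 8 roles, the 6 members included. Of these, 5 had no read in any cell (Dll3, Neurl1a, Hey2, Heyl, Ptcra) and 48 passed the filter on low counts. None of the 48 was called by edgeR, and 7 had an unadjusted p under 0.05, beside 988 of all 11797 tested genes. DESeq2 called 4 of them (Maml2, Maml3, Myc, Notch1) and limma-trend 3 (Hes1, Myc, Notch1), all higher in Ly6D+. Over all genes, these tools called 1.66% and 1.87% higher. The log2 fold change was positive for 30 of 48, beside 50.9% of all tested genes, with a median of 0.22 against 0.01 for all tested genes. Shares of positive cells were higher without overlap on Ly6D+ chips for 13 genes and lower for 3, Aph1c and Tcf7 among them, beside 10.4% higher and 6.08% lower among all tested genes.

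**Figure D5:**
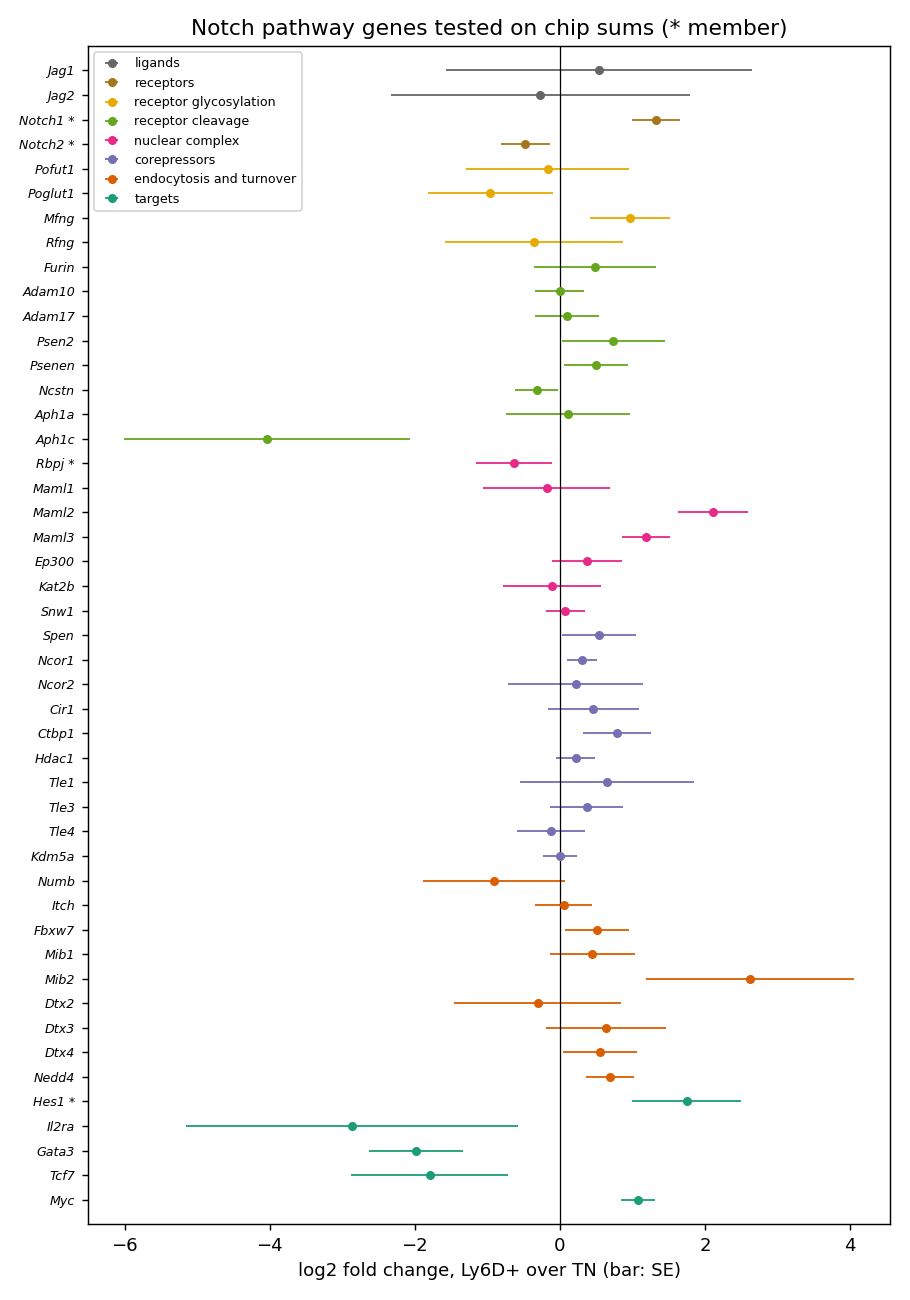
Log2 fold change (Ly6D+ over TN, edgeR on chip sums) with its SE for pathway genes that passed the filter on low counts, arranged by role. Notch1 at 1.33 and Maml2 at 2.11 lie to the right of 0, Gata3 at -1.98 lies to the left, and none passed an adjusted p of 0.05.

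Ligands were hardly read in these progenitors. Jag1 had 747 reads in 7 cells, Jag2 421 reads in 17, Dll1 16 reads in 4 and Dll4 1 read in 1 cell. The other receptors were as rare, with 645 Notch3 reads in 3 cells and 10 Notch4 reads in 1 cell, so Notch1 and Notch2 were the receptors widely read here. Among the genes that add sugars to the receptors, the Fringe enzyme Mfng had the highest level per kilobase, with means of 45.4 ± 27.5 CPM on TN and 88.8 ± 31.7 on Ly6D+ chips (SD, n = 3; adjusted p = 0.712 in edgeR).

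Among cleavage genes the highest level per kilobase was that of Psenen, a gamma-secretase subunit, with 38.0 ± 9.8 CPM in TN and 53.5 ± 14.4 in Ly6D+. The protease gene Adam10, which makes the first ligand-induced cut, was at 190 ± 76 and 189 ± 14 CPM.

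In the nuclear complex, 2 of the 3 Mastermind-like coactivator genes had low unadjusted p-values. Maml2 was at 23.4 ± 4.7 CPM in TN and 101 ± 50 in Ly6D+ (log2 fold change 2.11 ± 0.48, adjusted p = 0.198 in edgeR), and Maml3 at 55.5 ± 15.6 and 126 ± 14 (1.19 ± 0.33, adjusted p = 0.287 in edgeR). Maml1 was at 21.7 ± 14.3 and 19.1 ± 16.6. Snw1, a coregulator that is also a splicing factor, had the highest level of the complex, at 309 ± 64 and 326 ± 80 CPM. Of the 10 corepressors, 9 had positive log2 fold changes (50.9% of all tested genes did), with a median of 0.34 and none called. The corepressor with the highest level per kilobase was the deacetylase gene Hdac1, at 166 ± 7 and 193 ± 50 CPM. In turnover, the ubiquitin ligase gene Nedd4 was at 285 ± 123 and 462 ± 26 CPM (log2 fold change 0.69 ± 0.33, adjusted p = 0.641 in edgeR).

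The target list, which is drawn largely from T-cell precursors, held estimates of both signs. Of 13 targets, 5 passed the filter on low counts, and 2 of these had a positive log2 fold change. Their median of -1.80 was the estimate of Tcf7 alone (SE 1.08). The lowest, -2.86 ± 2.29 (SE), was that of Il2ra. Myc, a growth regulator with many inputs besides Notch, was at 169 ± 32 CPM in TN and 356 ± 54 in Ly6D+ (log2 fold change 1.08 ± 0.24, adjusted p = 0.186 in edgeR). Gata3, a T-lineage factor, was at 80.0 ± 45.4 and 20.3 ± 10.5 CPM (-1.98 ± 0.65, adjusted p = 0.386 in edgeR), and was detected in 10.7% ± 2.4 and 10.1% ± 5.2 of cells. Tcf7, another T-lineage factor, had reads in 36 cells, at 188 ± 116 and 54.3 ± 47.8 CPM. Il2ra had reads in 6 cells, Bcl11b in 3, Hes5 in 3 and Hey1 in 1. Hes1 and Myc were thus the targets with higher shares on all Ly6D+ chips, whereas Gata3 and Tcf7 had negative estimates that did not pass the test.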

How the data were processed

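The authors deposited 1 table of raw read counts per gene and cell (unit: counts, not normalized), with gene lengths, for cells kept at 60% or more mapped reads, and past minimum counts and genes, per the labels' protocols and series text. The submitters' processing notes name mm9 and R 3.2.0, and aligner, counter and strand setting were not given in the sources used here. The libraries were SMARTer and Nextera XT, without molecular identifiers, per the labels' protocols.

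Symbols were matched by Entrez identifier for 23334 of 23427 genes. Counts were summed per chip (35734620 to 61415823 reads) and tested with edgeR 4.0.16 (TMM, filterByExpr, quasi-likelihood, Benjamini-Hochberg over all tested genes) under R 4.3.3. DESeq2 1.42.0, limma 3.58.1, RLE scaling, no filter, other detection limits, cells with 1500 or more genes and leaving out each chip were the alternatives. Shares of cells were compared by exact permutation over 6 chips. No doublet caller was run. Scripts were tested on simulated data.

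The members, the pathway list and the marker lists were chosen with earlier results of these data known. Besides members, the rule named pathway genes called by edgeR and the highest of each role per kilobase. Maml2, Maml3, Gata3, Tcf7, Aph1c, Adam10, Maml1 and the genes named for few or no reads were chosen after their values were seen, as was the use of Dntt to compare populations. Likeness was ranked as stated with the values, 3 genes each. One gene of the pathway list, counted in its totals, is not reported here.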

Additional observations from a re-analysis of the deposited data

How the results depend on the processing

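Genes called over the whole table numbered 24 in edgeR, 390 in DESeq2 and 326 in limma-trend, and 2 to 23 with a chip left out (8, 12 and 7 without TN chips 1, 2 and 3, 4 without Ly6D+ chip 4 and 2 without Ly6D+ chip 6). Members called were 0 in edgeR, 1 in DESeq2 and 2 in limma-trend, and pathway genes 0, 4 and 3. The cause was not tested. The log2 fold change of Notch1 was 1.33 in DESeq2, past the threshold. In limma-trend the estimates were 2.36 for Notch1 and 1.81 for Hes1, both past it. These are differences in the mean over cells of log2(CPM + 1), a measure unlike the fold change of summed reads.

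With a chip left out, log2 fold changes ranged from 1.03 to 1.6 for Notch1, -0.70 to -0.10 for Notch2, -1.37 to -0.30 for Rbpj and 1.62 to 1.88 for Hes1. Differences in share ranged from 26.2 to 34.7 percentage points for Notch1, -10.2 to -0.77 for Notch2, -9.60 to 4.44 for Rbpj and 18.7 to 26.6 for Hes1. Only the Rbpj share turned direction, to 3.09 without TN chip 1 and 4.44 without Ly6D+ chip 5. The Rbpj difference with Notch2 was 25.0 points at a limit of 1 read, and the Hes1 difference with Dntt 15.1 without thinning. Of the alternative values, 133 stayed on the same side or within the spread, 15 moved, 2 turned direction and 3 newly passed the threshold. Shares compared between populations were scored by direction only. The 133 therefore include the Hes1 share at 20 or more thinned reads, where the difference was 1.05 percentage points instead of 23.4. Exact permutation over 2 against 3 chips cannot go below 0.1. No paired analysis was possible because the chips of the 2 populations carry different numbers. The settings for Dntt and for the receptor ratio were chosen after seeing the data.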
